A study of Mus musculus with 42 samples.

Results

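Skeletal muscle of spontaneously diabetic KK/Ay mice was compared with skeletal muscle of healthy C57BL/6 mice, and the 6 arrays of that comparison, 3 per group, are described here across all genes. They were taken from a series of 42 one-colour Agilent expression arrays of skeletal muscle and aorta in 7 kinds of mice, and the members were chosen by their sample titles alone. KK/Ay mice carry the yellow allele of agouti, Ay, on the obese and insulin-resistant KK background. The diabetic group was male, was 18 to 20 weeks old, and received saline by gavage for 8 weeks with no high-fat diet and no L-NAME, a nitric oxide synthase inhibitor given to the other KK/Ay groups. The healthy group was male C57BL/6 of the same age given the same saline, and 3 mice per group were sampled. Strain and diabetes therefore cannot be told apart in this comparison, and the labels do not name the muscle that was dissected. P-values measure the spread between these 3 and 3 samples.

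Skeletal muscle takes up most of the glucose that insulin clears from the blood. It burns fatty acids or glucose in mitochondria according to supply, and its mass is set by the balance between protein synthesis and breakdown. In fasting or glucocorticoid excess, FoxO factors and the glucocorticoid receptor raise the ubiquitin ligases Trim63 (MuRF1) and Fbxo32 (atrogin-1), which tag muscle proteins for degradation, while insulin holds FoxO factors out of the nucleus. Interferons act through cell-surface receptors on genes that carry interferon-stimulated response elements.

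The tissue label held. All 9 skeletal muscle markers, among them Acta1, Ckm and Tnnt3, were well above background on all 6 arrays, and their mean intensity ranged from 16.62 to 16.90 on the log2 scale. No liver marker was above background on all 6 arrays, though albumin (Alb) was on 5, all 3 healthy arrays among them. Adipocyte, macrophage and red cell markers were present as well and are given beside the results they touch. A bulk sample cannot tell fewer cells of a type from less RNA per cell.

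The arrays differed in spread, and each group had slides of its own. Healthy arrays 1 and 2 lay on slide 3, healthy array 3 on slide 4 and the 3 diabetic arrays on slide 5. Since no slide held both groups, the fit with slide as a random block cannot separate slide from group. A call kept in that fit can still hold a slide difference. The share of probe spots well above background ran from 56.56% to 65.72%. Diabetic arrays correlated with each other at 0.980 to 0.997 over genes, and healthy arrays at 0.936 to 0.965. Healthy array 2 correlated with diabetic arrays 1 and 3 at 0.971 and 0.972, above its 0.965 and 0.936 with healthy arrays 1 and 3. Diabetic arrays 1 and 3 were the closest pair, yet 32.9% of 143 probes with 10 spots each differed between them by more than 2 standard errors, against 5% that spot noise alone would give. That share was the lowest among the pairs of these 6 arrays, and it does not tell 2 mice from 2 hybridisations of one RNA, which was not tested. They were counted as 2 samples because the labels give them as such.

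Agouti and Nnt served as strain checks. Agouti (a; chr2:154871493-154873446, mm9), which the yellow allele switches on in all tissues, read 5.54, 5.42 and 5.43 on the healthy arrays and 9.94, 9.04 and 9.37 on the diabetic arrays in log2 intensity. It was not well above background on any healthy array and was at least 15.6-fold higher in diabetic muscle (limma adjusted p = 0.00105). Such a bound sets the brighter group's mean against, per dim array, the higher of the gene's own signal and the lowest signal among probes well above background. Nnt, the mitochondrial nicotinamide nucleotide transhydrogenase that is partly deleted in C57BL/6J mice, read 10.01, 9.78 and 9.76 in healthy and 11.24, 11.21 and 11.46 in diabetic muscle. It was 2.74-fold higher in diabetic muscle (log2 1.45 ± 0.14 SE, adjusted p = 0.00531). The values are means of 3 Nnt probes, and whether these lie in the deleted part is not known here, so only a probe inside it would check the strain. Both genes separated the groups with no overlap. Agouti stayed called with slide as a random block (adjusted p = 0.0216) and Nnt did not (adjusted p = 0.0725).

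Of 13560 genes tested, 566 differed between diabetic and healthy muscle (4.17%; limma, adjusted p below 0.05). Of these, 326 were higher in diabetic muscle (2.4%) and 240 lower (1.77%), and 309 differed by more than 2-fold. At an unadjusted p below 0.05 there were 2995 genes (22.1%), 1753 higher (12.9%) and 1242 lower (9.16%). The groups did not overlap for 4204 genes (31%). The median log2 fold change of all genes tested was 0.03. With slide as a random block, whose estimated within-slide correlation was 0.4807, 31 genes were called, 14 higher and 17 lower, and leaving out single arrays gave from 43 calls (without diabetic array 3) to 1479 calls (without healthy array 3).

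**Figure D1:**
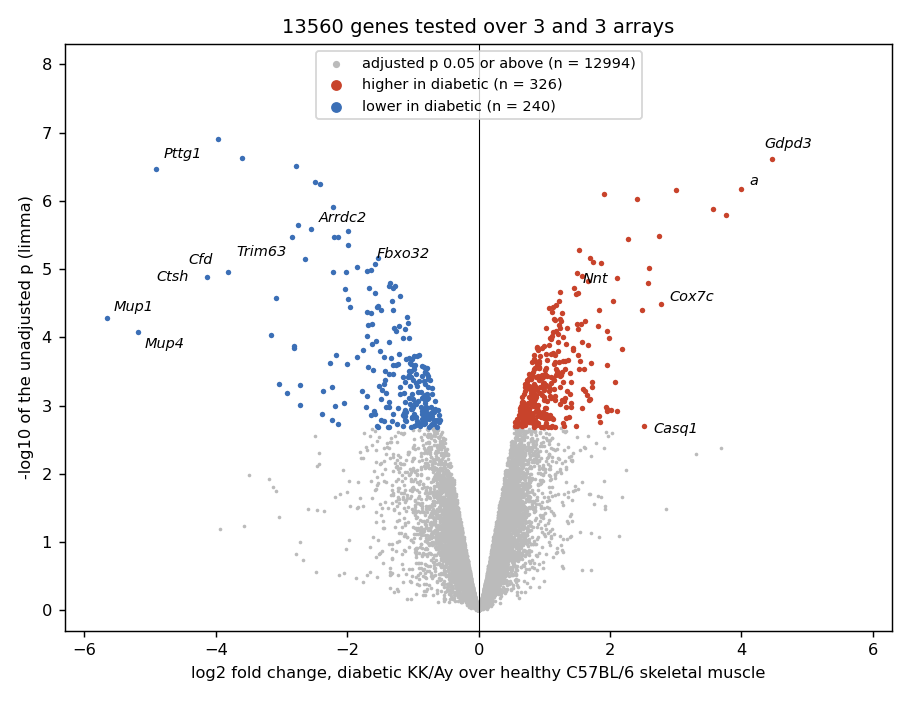
Log2 fold change of each gene in diabetic over healthy skeletal muscle (x axis) against -log10 of its unadjusted limma p (y axis). Each point is one of 13560 genes; 326 genes called higher are red, 240 called lower are blue, and Mup1, Mup4 and Pttg1 lie farthest left, Gdpd3 farthest right.

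The largest increases were led by Gdpd3 (chr7:133914520-133914693, mm9), a lysophospholipase D that releases lysophosphatidic acid. It read 6.72, 6.46 and 7.29 on healthy arrays and 11.36, 11.15 and 11.36 on diabetic arrays, a 22.1-fold difference (log2 4.46 ± 0.22 SE, adjusted p = 0.000914). Gal3st1, which makes sulfatide, was 11.8-fold higher, and the uncharacterised 1700020D05Rik 13.5-fold. Abhd1 rose 8.06-fold, the organic cation transporter Slc22a2 6.74-fold and Tgds at least 5.65-fold, the last from below background on all 3 healthy arrays. Cox7c, Opn1mw and Casq1, at 6.82-fold, 5.99-fold and 5.75-fold, completed the 10 largest. Slc22a2 was well above background on 1 healthy array, and Gal3st1 and Opn1mw on 2 each. Gdpd3, agouti, 1700020D05Rik, Gal3st1, Abhd1, Slc22a2 and Tgds stayed called with slide as a random block, while Cox7c, Opn1mw and Casq1 did not.

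The largest decreases held 3 major urinary proteins, pheromone carriers whose near-identical copies can share a probe, so no value can be tied to one gene. Mup1 read 13.08, 10.33 and 11.20 on healthy arrays and 5.98, 6.05 and 5.61 on diabetic arrays (adjusted p = 0.0093), and Mup4 and Mup5 followed it. Of the liver markers listed, albumin (Alb) was above background on all 3 healthy and 2 diabetic arrays. It read 6.51, 6.28 and 5.85 against 5.90, 5.89 and 6.11 and did not pass (log2 -0.25, limma adjusted p = 0.5). The part of liver RNA in the Mup values was not tested. Pttg1 (chr11:43233801-43233860, mm9), the securin that holds back the separation of sister chromatids, read 13.69, 13.82 and 12.89 against 8.59, 8.71 and 8.37, a 30.1-fold fall (log2 -4.91, adjusted p = 0.000914). Also among the 10 were the lysosomal protease Ctsh, 17.6-fold lower, 5830417I10Rik, at least 15.6-fold lower, BC023105, at least 12.2-fold lower, and the transporter Slc47a1, 8.47-fold lower. The interferon-induced GTPase Ifi47 was at least 8.92-fold lower. Cfd is described with the fat genes. Only Pttg1, 5830417I10Rik and BC023105 of these 10 stayed called with slide as a random block.

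The ubiquitin ligases of muscle protein breakdown and many glucocorticoid-responsive genes were lower in diabetic muscle. Trim63 read 15.14, 14.71 and 15.40 on healthy arrays and 12.65, 12.51 and 12.16 on diabetic arrays. That was a 6.25-fold fall (log2 -2.64, adjusted p = 0.0036), and the call held with slide as a random block (adjusted p = 0.0413). Fbxo32 read 12.81, 12.74 and 12.95 against 11.16, 11.39 and 11.05, a log2 fold change of -1.63 (adjusted p = 0.00408; 0.0567 with slide as a random block). Neither gene had a diabetic array within 1 log2 unit of a healthy one. Of 33 atrophy and myogenic genes tested, 3 fell and 3 rose (1.77% of all genes fell and 2.4% rose), with a median of -0.16, and with slide as a random block Trim63 alone stayed called. The third to fall was Cdkn1a, the cell cycle inhibitor p21, at 10.88, 10.60 and 12.46 in healthy and 8.88, 8.92 and 8.99 in diabetic muscle (5.22-fold). The 3 that rose, by 0.90 to 0.98 on the log2 scale, were Chrne, the adult subunit of the acetylcholine receptor, Ky, a muscle protein, and Fst, which binds myostatin. Myostatin itself (Mstn) had a log2 fold change of -0.07 (limma adjusted p = 0.831). Ky was well above background on 1 healthy array.

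The 216 bases before the Trim63 start (chr4:134314904-134315119, plus strand, GRCm38.p6, from RefSeq) are shown because Trim63 fell most among the atrophy genes and the sequence holds both motifs of its textbook regulators. Capitals mark the glucocorticoid response element core ACANNNTGT, 206 bases before the start, and the FoxO motif GTAAACA, here on the opposite strand, 194 bases before it.
Trim63: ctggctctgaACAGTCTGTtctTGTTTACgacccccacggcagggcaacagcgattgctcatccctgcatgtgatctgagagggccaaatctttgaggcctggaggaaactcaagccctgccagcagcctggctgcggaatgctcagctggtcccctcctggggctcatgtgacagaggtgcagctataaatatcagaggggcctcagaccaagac
Searched on both strands in the 250 bases before each start, the core stood in 5.84% and the FoxO motif in 3.17% of 32851 promoters. Of 25 tested atrophy and myogenic genes with a promoter in the table, 1 held the core and 2 held the FoxO motif. Of 17 tested glucocorticoid-responsive genes with a promoter, 4 held the core, and of the 7 called ones among them 1, Glul, did.

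Among 19 glucocorticoid-responsive and metallothionein genes tested, 8 fell (42.1%, against 1.77% of all genes) and none rose, with a median log2 fold change of -1.36. Without an adjustment 14 were lower at p below 0.05, and 18 of 19 lay below 0. Arrdc2, an arrestin-domain protein that rises in muscle under glucocorticoids, read 11.05, 10.66 and 11.19 in healthy and 8.62, 8.28 and 8.36 in diabetic muscle. It fell 5.84-fold (log2 -2.55, adjusted p = 0.0022; 0.0249 with slide as a random block). Klf15, a factor for amino acid catabolism, read 9.97, 9.95 and 10.19 against 8.67, 8.60 and 8.75 (log2 -1.36, adjusted p = 0.00529). Glutamine synthetase (Glul) read 11.77, 11.44 and 11.95 against 10.09, 10.01 and 10.04 (log2 -1.67, adjusted p = 0.00531). All 3 were tight within each group and far apart between them. Cebpd fell 6.56-fold, Ddit4, an inhibitor of mTORC1, 5.15-fold and the clock gene Per1 2.20-fold, and Klf9 and Cdkn1a completed the 8. On the other 15 KK/Ay muscle arrays Per1 ran from 8.71 to 10.22, into its healthy range of 9.98 to 10.58. Fkbp5, a chaperone of the receptor, read 7.99, 7.83 and 9.29 against 6.80, 6.54 and 6.88 and did not pass (log2 -1.63, adjusted p = 0.0675). The metallothioneins Mt1 and Mt2 were far higher on healthy array 3, at 13.80 and 17.26, than on healthy arrays 1 and 2, at 10.28 and 10.04 and at 14.11 and 13.37, and did not pass either. With slide as a random block only Arrdc2 of these 8 stayed called; the list median ran from -2.08 to -1.17 over the alternatives.

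**Figure D2:**
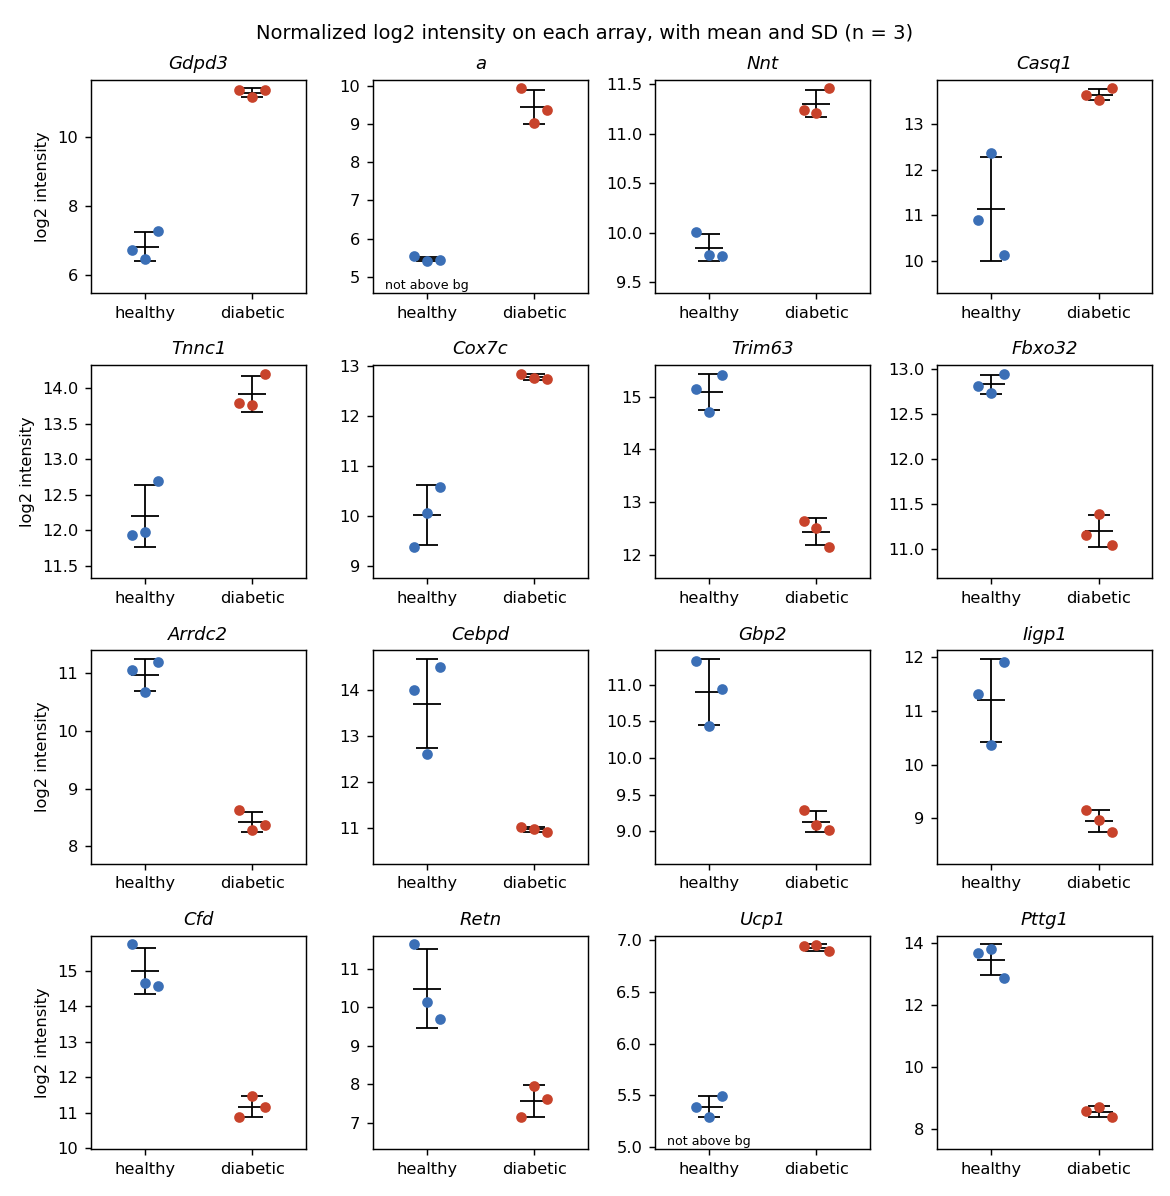
Normalized log2 intensity of 16 named genes on each of the 3 healthy (blue) and 3 diabetic (red) skeletal muscle arrays, with the mean and SD as black bars; each panel has its own y axis. The groups do not overlap in any panel, as for all 566 called genes, and agouti and Ucp1 were not above background on any healthy array.

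Interferon-induced genes lay below 0 in 28 of 31 members, and macrophage and antigen presentation genes in 28 of 32 and 21 of 25. Of 31 interferon response genes tested, 10 fell and none rose, against 1.77% of all genes called lower, and the median was -0.78. The immunity-related GTPase Iigp1 read 11.31, 10.37 and 11.90 in healthy and 9.15, 8.98 and 8.75 in diabetic muscle, a 4.71-fold fall (adjusted p = 0.0266). Gbp2, a guanylate-binding protein, read 11.32, 10.43 and 10.94 against 9.29, 9.09 and 9.02, a 3.40-fold fall (adjusted p = 0.0159). The lowest healthy array was array 2 for both, and it still lay above all diabetic arrays. Bst2 (tetherin) fell 4.70-fold and the chemokine Cxcl10, well above background on 1 diabetic array, 4.16-fold. Oas2, Oasl2, Ifit1, Ifih1 and Igtp were also among the genes that fell. With slide as a random block none of the 31 was called, the lowest count over the alternatives, and the highest count was 26.

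Of 23 tested interferon genes with a RefSeq promoter, 13 held the interferon-stimulated response element, searched as a pair of GAAA runs with any 2 bases between them, within 250 bases before the start on either strand, and 5 of the 7 called ones did, while 2.98% of all promoters and 3.15% of the tested genes held it. The elements of 4 genes that fell are shown in capitals, in the stretch that ends at the base before the start (GRCm38.p6): Gbp2 (chr3:142620513-142620662, plus strand), Ifit1 (chr19:34640739-34640888, plus strand), Bst2 (chr8:71537473-71537622, minus strand) and Igtp (chr11:58199406-58199555, plus strand).
Gbp2: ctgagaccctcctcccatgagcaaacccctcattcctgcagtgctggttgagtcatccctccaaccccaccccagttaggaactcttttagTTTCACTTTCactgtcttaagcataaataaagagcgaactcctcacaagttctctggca
Ifit1: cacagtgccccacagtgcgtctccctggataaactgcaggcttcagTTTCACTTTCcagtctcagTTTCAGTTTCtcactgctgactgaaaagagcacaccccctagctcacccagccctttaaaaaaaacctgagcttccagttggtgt
Bst2: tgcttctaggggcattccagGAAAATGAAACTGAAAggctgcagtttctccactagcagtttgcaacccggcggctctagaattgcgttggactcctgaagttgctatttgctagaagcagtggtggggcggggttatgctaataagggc
Igtp: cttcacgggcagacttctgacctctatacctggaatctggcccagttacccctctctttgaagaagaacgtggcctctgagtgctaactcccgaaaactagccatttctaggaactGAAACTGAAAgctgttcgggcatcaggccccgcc
Ifit1 held the element at 2 places, and in Bst2 a pair of matches overlapped. The gamma-activated sequence TTCNNNGAA stood in 5 of the 23 and in 7.02% of all promoters.

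In the 32 macrophage and complement genes tested, 4 fell (12.5%, against 1.77% of all genes), none rose and the median was -0.81, with 20 lower at an unadjusted p below 0.05. The 4 were the complement parts C1qa (2.18-fold) and C1qc (2.60-fold), the Fc receptor Fcgr2b (2.47-fold) and the chemokine Ccl9 (2.91-fold). C1qc read 11.38, 10.86 and 12.05 on healthy arrays and 10.09, 9.96 and 10.10 on diabetic arrays (adjusted p = 0.05, under the threshold before rounding). Healthy array 3 was the highest in each. None of the 4 stayed called with slide as a random block (adjusted p from 0.21 to 0.289), and each lost its call in 9 to 11 of 21 alternatives. The mean of 7 macrophage markers ran from 9.16 to 10.39 in healthy and from 8.40 to 8.62 in diabetic muscle, all 7 were above background on all 6 arrays, and their part in the immune lists was not tested. None of 25 genes of MHC and antigen presentation passed limma's adjusted threshold, although 9 were lower and 1 higher at an unadjusted p below 0.05 and the median was -0.80. B2m, the shared light chain of class I molecules, read 11.70, 10.77 and 11.38 against 10.01, 10.34 and 9.81 (log2 -1.23, adjusted p = 0.0534), and H2-Q10 had the same log2 fold change (adjusted p = 0.0641). The mean of 6 B and T cell markers was 8.97 on healthy array 1 and between 6.40 and 6.86 on the other 5 arrays; without healthy array 1 the MHC median was -0.36.

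Nuclear genes of oxidative phosphorylation lay above 0 as a group, and a few rose. Of 78 tested, 8 rose (2.4% of all genes did) and none fell, 34 were higher at an unadjusted p below 0.05 and 68 lay above 0, with a median of 0.47. Cox7c, a subunit of cytochrome c oxidase, read 9.38, 10.06 and 10.59 in healthy and 12.85, 12.76 and 12.73 in diabetic muscle (6.82-fold, adjusted p = 0.00725). Ndufs8 of complex I read 10.66, 10.67 and 10.80 against 11.76, 11.80 and 11.93 (2.18-fold, adjusted p = 0.00795). The 2 groups were tight and apart for Ndufs8. Ndufb5 of complex I rose 2.99-fold and Atp5g3 of the ATP synthase 2.05-fold, and Atp5e, Sdhd, Ndufab1 and Sdhc were the other 4. Of 23 genes of the citrate cycle and pyruvate dehydrogenase, 2 rose (8.7%, against 2.4% of all genes) and none fell, with a median of 0.47. These were Pdhx, which tethers a subunit of the pyruvate dehydrogenase complex (2.62-fold), and the ADP/ATP carrier Slc25a4 (1.61-fold), which was listed with them.

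Levels of several of these genes moved with slides in the other KK/Ay muscle. The 6 KK/Ay arrays on slides 3 and 11, all of huoxue or rosiglitazone groups, read 9.82 to 10.94 for Ndufs8, around the healthy range of 10.66 to 10.80, whereas the 9 on slides 5, 7 and 8 read 11.73 to 12.09. Cox7c ran from 9.41 to 11.34 on the former and from 12.35 to 13.45 on the latter. Pdhx likewise ran from 7.89 to 9.34 and from 10.18 to 10.51. Sdhc did not split this way, at 13.52 to 13.76 and 13.19 to 13.66, both above the healthy maximum of 12.95. The medians over the 78 genes against healthy muscle were 0.30 on slides 3 and 11 and 0.42 on slides 5, 7 and 8. Treatment and slide cannot be told apart there. In the fit of all 42 arrays with a batch term for slides 1, 3 and 11, Ndufs8 had a log2 fold change of 0.32 (adjusted p = 0.656), Cox7c 1.16 (adjusted p = 0.128), and 2 of the 78 genes were called. Only healthy muscle and the healthy, diabetic and SHENQI aorta groups had arrays both on and off those slides. The KK/Ay muscle arrays above therefore did not set that batch term. With slide as a random block none of the 78 was called, and none of the 23 citrate cycle and pyruvate dehydrogenase genes.

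**Figure D3:**
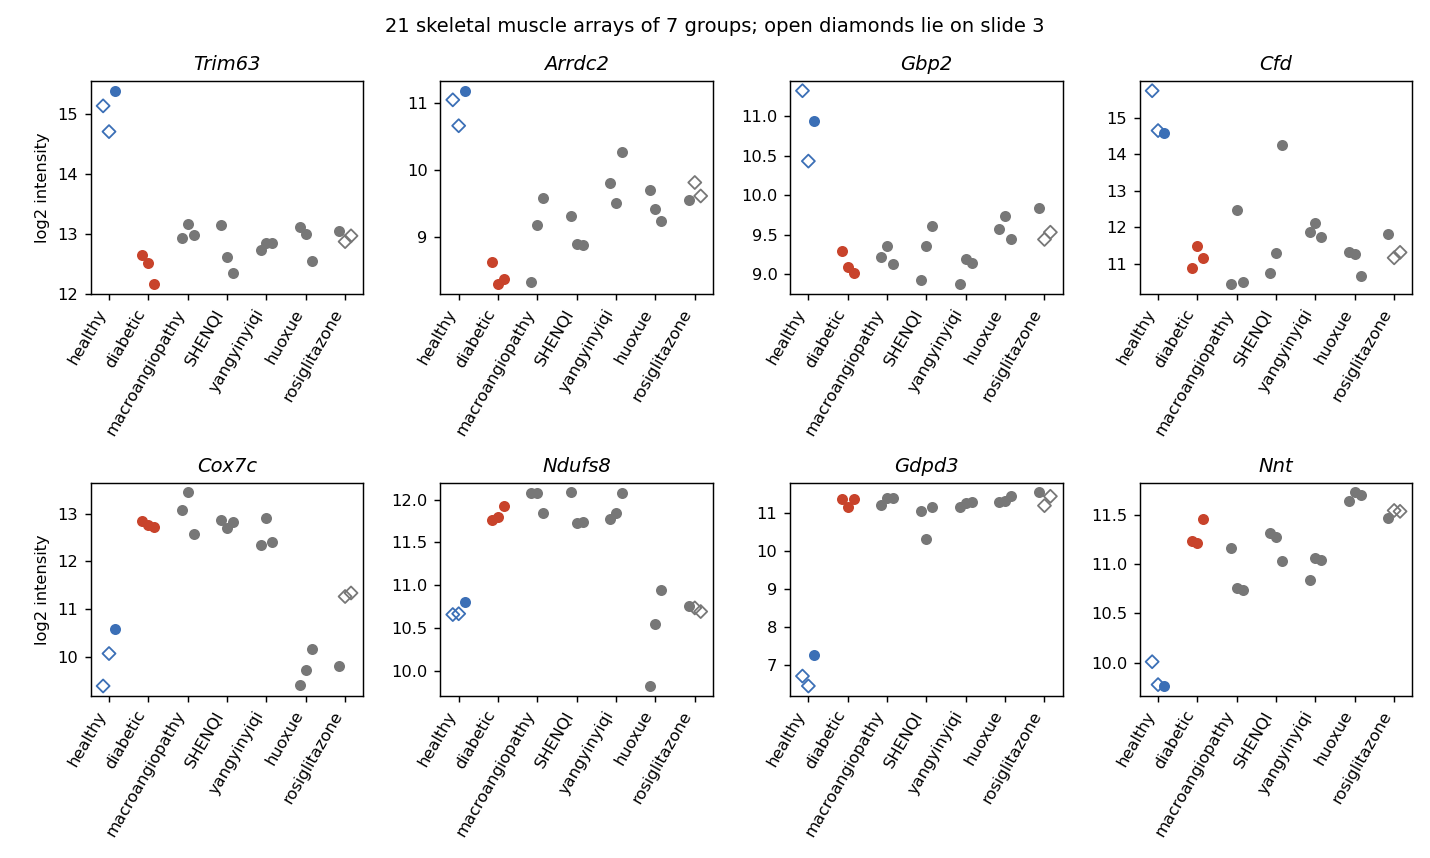
Log2 intensity of 8 genes on all 21 skeletal muscle arrays, by group, with healthy in blue, diabetic in red and the other KK/Ay groups in grey; open diamonds are arrays of slide 3. Trim63, Gdpd3 and Nnt separate healthy from all KK/Ay arrays, whereas Ndufs8 of the huoxue and rosiglitazone arrays (9.82 to 10.94) lies around the healthy range.

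Contractile and calcium-handling genes differed in few members. Of 15 slow-fibre genes 2 rose (13.3%, against 2.4% of all genes), with a median of 0.48. Tnnc1, slow troponin C, read 11.93, 11.97 and 12.70 in healthy and 13.79, 13.76 and 14.20 in diabetic muscle (3.28-fold, adjusted p = 0.0196), and slow troponin I, Tnni1, rose 1.99-fold. The slow myosin Myh7 had a log2 fold change of 0.48 (adjusted p = 0.0781). In 16 fast-fibre genes 1 rose (6.25%, against 2.4% of all genes), Casq1, the calcium store protein of fast fibres. It read 10.90, 12.38 and 10.12 against 13.64, 13.54 and 13.79 (5.75-fold, adjusted p = 0.0489), and it lost its call in 12 of 21 alternatives. Fast myosins Myh4 and Myh2 had log2 fold changes of 0.36 and 0.00 with adjusted p of 0.156 and 0.996. Of 36 potassium channel and calcium-handling genes 2 rose (5.56%, against 2.4% of all genes), Abcc9 (2.27-fold), the sulfonylurea receptor subunit of the ATP-sensitive channel in vessels and muscle, and Trdn (2.18-fold), which anchors Casq1 to the release channel. No call in these 3 lists held with slide as a random block.

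Genes of fatty acid uptake and oxidation lay above 0 in 26 of 37 members, with a median of 0.30 against 0.03 over all genes. The 2 of them that passed the test fell (5.41%, against 1.77% of all genes). At an unadjusted p below 0.05, 12 were higher and 2 lower, against 12.9% and 9.16% of all genes. Over 28 insulin signalling and glucose uptake genes the median log2 fold change was -0.12, and none rose. Slc2a4, the insulin-regulated glucose transporter GLUT4, read 14.13, 14.60 and 14.32 in healthy and 14.93 to 15.03 in diabetic muscle and did not pass (log2 0.63 ± 0.15 SE, adjusted p = 0.0738). Its groups did not overlap. Of 34 glycolysis and glycogen genes, Phkg1, the catalytic subunit of muscle phosphorylase kinase, rose 3.19-fold, and Ppp1r3c, which targets a phosphatase to glycogen, and the phosphofructokinase Pfkp fell by 1.26 and 0.81 on the log2 scale. Together they were 8.82% of that list, against 4.17% called over all genes. Phkg1 ran from 7.97 to 10.10 on the 6 other KK/Ay arrays of slides 3 and 11. On the 9 of slides 5, 7 and 8 it ran from 10.47 to 10.89. Its call was lost with the batch term, which these arrays do not set (log2 1.12, limma adjusted p = 0.0666). Of the 2 fatty acid genes that fell, Lpin1, a phosphatidate phosphatase and co-activator, read 12.46 to 13.39 against 11.54, 11.48 and 11.51 (2.72-fold lower, adjusted p = 0.0257). Pdk4, which shuts off pyruvate dehydrogenase in fasting, read 15.40, 15.84 and 15.41 against 14.44, 14.88 and 14.58 (1.89-fold lower, adjusted p = 0.0469), and kept its call in 6 of 21 alternatives. Ppara, the receptor that drives fatty acid oxidation, fell 2.22-fold (9.93, 10.33 and 10.16 against 8.97, 8.95 and 9.04, adjusted p = 0.0127), the only one of 24 PPAR and mitochondrial regulators to pass (4.17%, as over all genes). Ppargc1a, a co-activator of mitochondrial genes, had a log2 fold change of -0.63 (adjusted p = 0.356). No call in these 4 fuel lists held with slide as a random block (Phkg1 0.181, Lpin1 0.274 and Ppara 0.166 as adjusted p).

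Fat cell genes moved in both directions. Of 26 adipocyte and lipid storage genes tested, 3 fell and 2 rose (19.2% called, against 4.17% of all genes), with a median of -0.39. Cfd (adipsin; chr10:79355302-79355361, mm9) read 15.73, 14.64 and 14.57 in healthy and 10.87, 11.48 and 11.17 in diabetic muscle, a log2 fold change of -3.81 (adjusted p = 0.00408). Resistin (Retn) read 11.62, 10.12 and 9.70 against 7.14, 7.96 and 7.61, a 7.54-fold fall, and Plin4, a lipid droplet coat, fell 2.09-fold. Leptin (Lep) was the opposite, at 6.13, 5.32 and 5.47 against 7.10, 7.81 and 7.21 (3.32-fold higher, adjusted p = 0.0249), with 1 healthy array above background. Ucp1, the uncoupling protein of brown fat, was above background in diabetic muscle alone, at 6.94, 6.95 and 6.89, and was at least 2.75-fold higher (adjusted p = 0.00292; 0.0402 with slide as a random block). Cfd, Retn, Lep and Plin4 lost their calls in that fit. Of 6 adipocyte markers, Cfd and Lep among them, Cfd was the brightest on each healthy array. The log2 of their mean intensity, which leans on the brightest marker, was 14.13, 12.96 and 12.76 on healthy arrays. On diabetic arrays it was 11.87, 12.37 and 11.87, and it was highest on healthy array 1. The other 4, Adipoq, Plin1, Cidec and Fabp4, were above background on all 6 arrays and did not pass, and Adipoq, the fat cell hormone adiponectin, read 13.09, 11.66 and 10.92 against 10.89, 11.60 and 11.16 (log2 -0.67, adjusted p = 0.493). The part of fat cell content in these values was not tested.

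The remaining lists held few calls, and apart from Pttg1 none of them held with slide as a random block (adjusted p of 0.356 for Mcm6 and 0.316 for Pcna and Arntl). The share called was 11.4% of antioxidant, 11.5% of cell cycle, 16.7% of clock and 8.7% of immediate early genes, against 4.17% of all genes. In 35 antioxidant and glutathione genes Nnt and mitochondrial superoxide dismutase (Sod2, 1.76-fold) rose, and Gstm2 (2.48-fold) and Gclc (1.72-fold), which make and use glutathione, fell. Of 26 cell cycle genes 3 fell, Pttg1, the helicase part Mcm6 (4.53-fold) and the sliding clamp Pcna (1.76-fold), and the median was -0.38. In 46 extracellular matrix genes 2 passed (4.35%, against 4.17% of all genes). Lama2, the laminin chain of the muscle basement membrane, rose 2.20-fold, and the collagen crosslinker Lox fell 2.80-fold. Of 18 clock genes the core activator Arntl, at 9.40, 10.47 and 10.10 against 8.01, 8.58 and 8.29, fell 3.24-fold, Per1 fell and the repressor Bhlhe41 rose 1.79-fold. The immediate early list had 22 of 23 genes below 0 and a median of -0.55, with Btg2 (2.16-fold) and Klf6 (2.18-fold) as the 2 that fell. No heat shock or unfolded protein response gene of 33 passed limma's adjusted threshold, with 3 higher and 7 lower at an unadjusted p below 0.05. Ddit3, a factor of the unfolded protein response, came closest at a log2 fold change of 1.03 (adjusted p = 0.0595), before Sdf2l1 at -0.80 (adjusted p = 0.0742). The log2 of the mean intensity of 3 red cell markers was 14.22, 13.69 and 13.76 in healthy and 13.21, 12.88 and 12.73 in diabetic muscle. Of these markers 2 fell, Hba-a1 (log2 -0.86) and Alas2 (log2 -1.22).

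**Figure D4:**
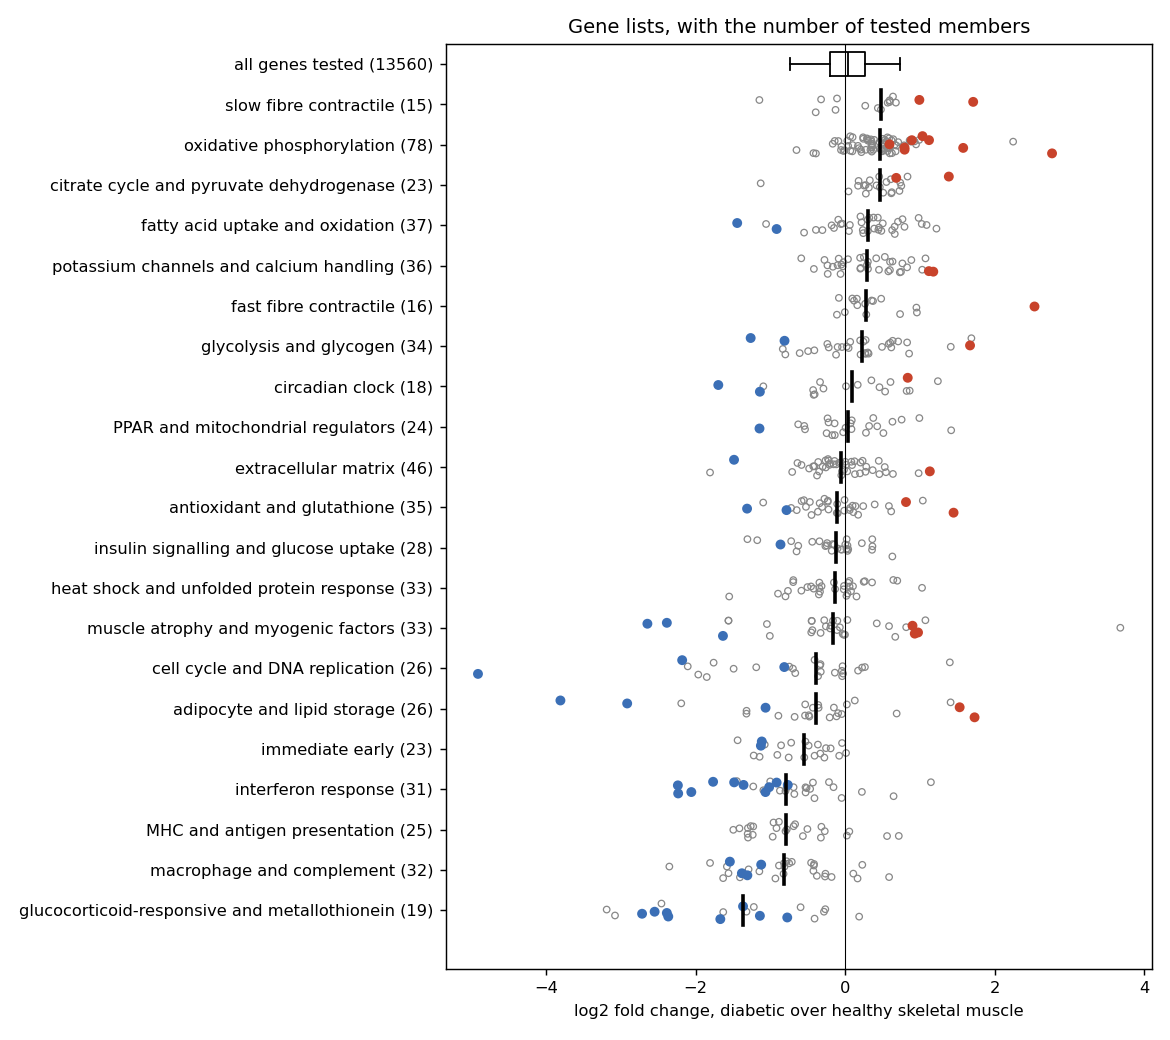
Log2 fold change of each tested member of 21 gene lists in diabetic over healthy skeletal muscle (x axis), with filled points for members called higher (red) or lower (blue), open points for the rest, and a black bar at the list median; the number of tested members is in parentheses. The box on top gives the median, quartiles and 5th to 95th percentiles of all 13560 genes, and the glucocorticoid-responsive list lies lowest, with a median of -1.36.

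The other 15 KK/Ay muscle arrays, which add L-NAME, high-fat diet and in most groups a drug, give the levels of the same genes in mice of the same strain. Trim63 ran from 12.35 to 13.16 there, below the lowest healthy array at 14.71. Gdpd3 ran from 10.31 to 11.54 and Nnt from 10.74 to 11.73, both above all healthy arrays. Arrdc2 ran from 8.31 to 10.27, between the diabetic and the healthy level for most arrays and below all healthy arrays. Cfd ran from 10.44 to 14.26, with 3 of the 15 above 12, and Pttg1 from 8.37 to 12.97, with 1 above 12, inside the healthy range. Tgds (lowest 5.69), Opn1mw (lowest 6.85) and Slc47a1 (highest 8.98) also reached into it. For 54 of the 72 named genes that were called, all 15 arrays lay on the diabetic side of the healthy range. Over all 566 called genes this was counted by slide set. All 6 arrays on slides 3 and 11 lay on that side for 228 of 326 higher and 208 of 240 lower genes. All 9 on slides 5, 7 and 8 did so for 313 higher and 199 lower genes. Rosiglitazone arrays 2 and 3 shared slide 3 with healthy arrays 1 and 2. On that slide the difference was -2.01 for Trim63, -1.15 for Arrdc2 and 2.41 for Tgds in log2 units. For Ddit4 and Per1 it was -0.99 and -0.13, against -2.36 and -1.14 in diabetic muscle. These groups are set against the same healthy arrays, so they are no independent check.

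A final question was whether the difference between diabetic and healthy mice was the same in aorta. In one fit of the 12 muscle and aorta arrays of these groups, the difference itself differed between the tissues for 8 of 14437 genes (0.0554%; 1021 or 7.07% at an unadjusted p below 0.05). Arrdc2 was 5.84-fold lower in diabetic muscle, while in aorta it read 7.51, 7.48 and 7.57 in healthy and 7.38, 7.66 and 7.38 in diabetic mice (difference of log2 fold changes -2.50 ± 0.24 SE, adjusted p = 0.00939). Tsga10ip read 6.14, 6.33 and 6.06 against 7.73, 7.57 and 7.71 in muscle and had a log2 fold change of -0.02 in aorta. Its difference was 1.51 (adjusted p = 0.0453). The cadherin of muscle precursor cells, Cdh15, fell 4.43-fold in muscle and was higher in diabetic aorta (log2 -2.15 against 2.09). Psph, of serine synthesis, and Selenbp1 also had opposite signs, though Psph did not pass in muscle in this fit (limma adjusted p = 0.0672). Gdf5, a growth factor of the BMP family, and Lypd1 differed through the aorta alone. The fast-fibre list had a median log2 fold change of 2.14 in aorta, and its part in the aorta values was not tested. With slide as a random block none of these 8 was called (700 genes at an unadjusted p below 0.05). Agouti and Gdpd3 had log2 fold changes of 3.70 and 5.01 in aorta, near those in muscle, and Trim63 had -0.25 against -2.64 in muscle, a difference that did not pass (adjusted p = 0.7).

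**Figure D5:**
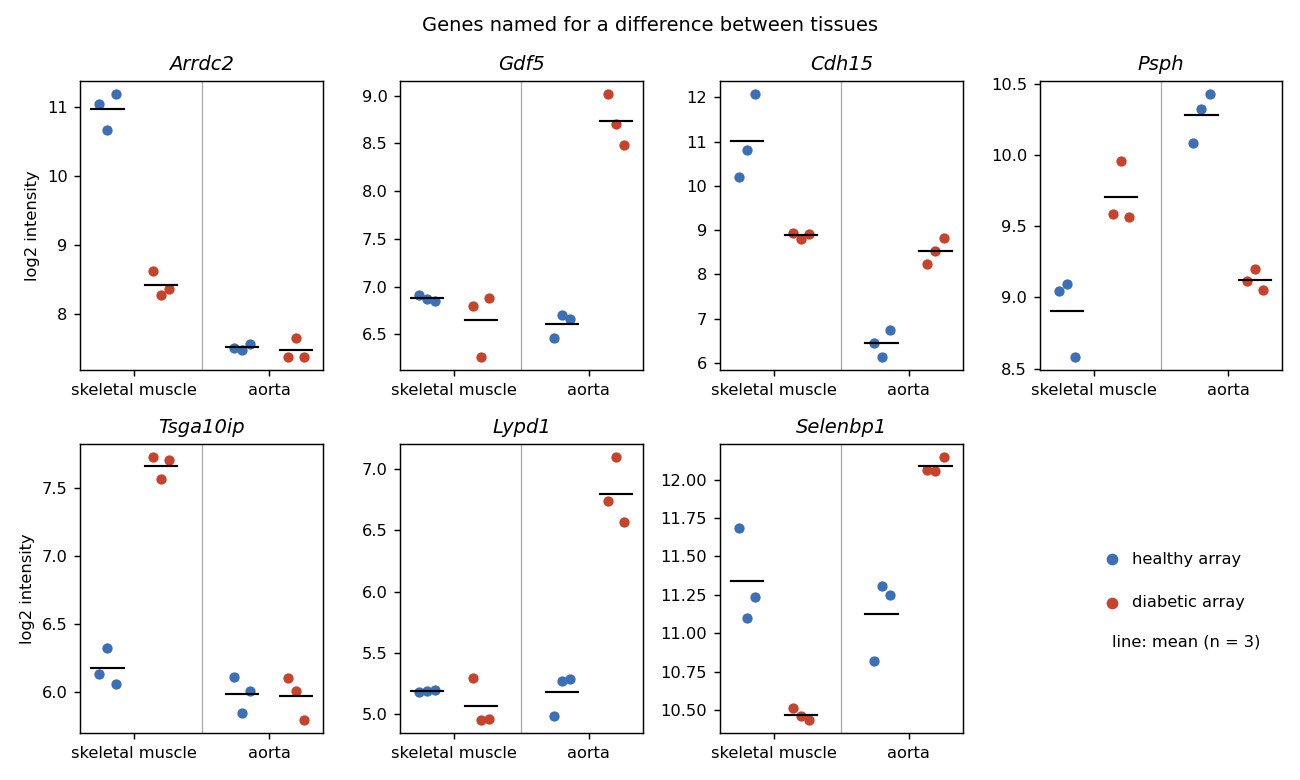
Log2 intensity of 7 genes whose diabetic against healthy difference differed between tissues, on 3 arrays per group, with healthy in blue, diabetic in red and the mean as a black line; skeletal muscle is on the left of each panel and aorta on the right. Arrdc2 falls in muscle and is level in aorta, and Cdh15 moves in opposite directions.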

How the data were processed

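Total RNA was labelled with Cy3 and hybridised to Agilent 4x44k mouse arrays, 1 per sample. Per the file headers, the authors read the spots with Agilent Feature Extraction 10.7, and the deposited median spot and background intensity values were used as they stood. The deposited table of log2 values, normalized by the authors with background correction and quantile scaling, served as an alternative. Its 6 columns shared a median of 5.36 and correlated at 0.973 to 0.976 with the values here, with slopes of 1.47 to 1.48, so its direction is the same and its background correction stays unknown. Intensities were background corrected with normexp (offset 0, all spots), control spots were dropped, and log2 values were quantile normalized over 42 arrays in limma 3.58.1 under R 4.3.3. Spots flagged as irregular were left out, spots of a probe and then probes of a gene were averaged, and 41174 probes were matched to 19987 genes by accession (27479), symbol (5478) or synonym (679), with 7538 unmatched, through RefSeq tables (GRCm38.p6; probe coordinates are mm9 as in the files).

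Genes well above background on all 3 arrays of a group were tested with limma's lmFit and eBayes on the 6 arrays, or on 12 with aorta for the difference between tissues, with Benjamini-Hochberg adjustment and a threshold of 0.05. For 3 tested genes an array was missing. No replicate number paired the samples. Precision is limited by the number of arrays. The text names the 10 largest called increases and decreases, up to 5 called genes per list (or the 2 of smallest p), the strain checks and up to 5 genes per direction that differed between tissues; other list members and slide values were chosen after their values were seen. Some genes that the rule names are not reported here. The batch term set apart slides 1, 3 and 11, as an earlier look at these data had done. It was set by healthy muscle and 3 aorta groups (healthy, diabetic and SHENQI), the only groups with arrays both on and off those slides. The comparison and the lists were chosen with earlier results of these data known. Alternatives covered background correction, scaling, filter, probe choice, arrays in the fit, slide, replicate block and single arrays left out.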

Additional observations from a re-analysis of the deposited data

Results flagged for a closer look

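Genes are given here because the diabetic against healthy difference in skeletal muscle differed from that in aorta in the fit of 12 arrays (limma, adjusted p from 0.00939 to 0.0453). The difference of the log2 fold changes, muscle minus aorta, was -2.50 for Arrdc2, -2.36 for Gdf5, -4.24 for Cdh15, 1.95 for Psph, 1.51 for Tsga10ip, -1.53 for Arsj, -1.74 for Lypd1 and -1.83 for Selenbp1. Arrdc2 and Tsga10ip were near 0 in aorta, at -0.05 and -0.02, and Gdf5, Lypd1 and Psph did not pass in muscle. Diabetic aorta arrays 2 and 3 shared slide 4 with healthy muscle array 3.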

How the results depend on the processing

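The count of 566 genes was 359 with the processed signal, which shifted the median of all genes to 0.17, 293 with no filter, 3675 with all 21 muscle arrays in the fit, 1228 with all 42, 1279 with the batch term for slides 1, 3 and 11, and 31 with slide as a random block. Leaving out 1 array gave 43 to 1479 calls, and without healthy arrays 1 and 2, which assumes that the lone healthy array varies like the diabetic ones, 4502. The 2995 genes at an unadjusted p below 0.05 became 5228 with 21 arrays, 1309 with slide as a random block, 6220 without healthy arrays 1 and 2, and 1777 to 4090 with 1 array left out. The difference between tissues gave 8 genes, 3 with the processed signal, 2 with no filter, 4 with the brightest probe, 158 with 42 arrays, 258 with the batch term, 0 with slide as a random block (700 unadjusted) and 0 to 54 with 1 array left out (684 and 1697 unadjusted at those ends). Same-numbered arrays deviated against each other (correlations -0.07, -0.49 and -0.21), so numbers do not pair samples; with the replicate block the counts were 74 in muscle, all among the 566, and 2 for the difference between tissues. Over 78 named genes and 1623 gene and setting pairs, 1173 kept their call or lack of one, 426 lost a call, 24 gained one and 0 changed sign. Of these genes 72 were called, and the groups of all 566 called genes did not overlap. Leaving out arrays therefore could not change the sign of a called gene. The cause of these changes was not tested. Leaving out any of the 3 diabetic arrays left 43 to 75 calls, and genes near background have only bounds.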

Other observations

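Among the 31 genes that stayed called with slide as a random block were several outside the lists, named here after their values were seen. Cyp2e1, a cytochrome P450 of acetone and ethanol metabolism, read 9.87, 9.61 and 9.78 in healthy and 6.94, 6.83 and 7.15 in diabetic muscle (log2 -2.78, limma adjusted p = 0.000914). Gmnn (geminin), an inhibitor of DNA replication licensing, had a log2 fold change of -2.75. Histone H4 genes H4c4, H4c6, H4c1 and H4c14 had log2 fold changes of -2.84, -2.20, -2.22 and -2.13; their coding sequences are near-identical, so their probes are not independent. H4c6 read 13.99, 13.72 and 13.47 against 11.54, 11.45 and 11.59.

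The called genes were spread over the chromosomes, with shares of the tested genes from 1.41% on chromosome 16 to 5.89% on chromosome 13, and 1.9% on X.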
